A study of Mus musculus with 10 samples.

Results

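Pax5 and the DNA around it were examined in 10 mouse BCR-ABL1 leukemias by array comparative genomic hybridisation, in which tumour DNA and non-leukemic DNA compete for the same probes. All probes placed inside 44.5 to 44.76 Mb of chromosome 4 (mm9) were taken, 712 of the 402346 placed probes on the array. The rule uses positions alone, while the gene itself was chosen with earlier results of these data known. They were described as a gene body of 505 probes (44545000 to 44723000), a downstream flank of 122 probes below 44.545 Mb and an upstream flank of 85 probes above 44.723 Mb. Pax5 lies on the minus strand, so the downstream flank, at the lower coordinates, is on the side of its 3′ end. Median spacing was 328 bases between gene-body probes and 5343 bases between autosomal probes, so the gene was covered far more closely than most of the genome.

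The tumours were 5 Ikzf1+/- and 5 Ikzf1+/+ leukemias. Ikzf1 encodes Ikaros, a zinc-finger transcription factor of lymphoid cells, and BCR-ABL1 is the oncogenic kinase made by the Philadelphia chromosome. All 10 are taken as BCR-ABL1 tumours, as the series describes them. DNA came from GFP+ leukemic cells in the bone marrow of mice that were wild-type or altered at Ikzf1. It was labelled with Cy5 on every array against Cy3-labelled DNA of stage-matched non-leukemic bone marrow, which the study's design text names as B220+ B cells. The dyes were the same way round on all arrays, so an effect of the dyes shared by all of them stayed in the ratios. Age, sex, strain and the way BCR-ABL1 was introduced were not given in the labels used here, nor was it stated whether the 5 tumours of a genotype came from separate animals. The p-values therefore measure the spread between these samples, which may in part be technical. DNA carries no expression markers, so the labelled cell type could not be checked. In bulk DNA, a change in few cells and a smaller change in many cells cannot be told apart.

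Pax5 encodes the transcription factor that commits lymphoid progenitors to the B-cell lineage, by activating B-cell genes and repressing genes of other lineages. Human B-cell precursor leukemias often carry deletions or mutations of PAX5, and BCR-ABL1-positive ones often lose IKZF1 as well. The genotype comparison asks whether tumours that start with 1 altered copy of Ikzf1 differ at Pax5 from tumours that start with both copies intact.

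In the GRCm38 gene table Pax5 (gene 18507, transcript NM_008782.3) lies between Melk, at lower coordinates, and Zcchc7, at higher ones. It spans 186 kb there, 6.95 kb more than the 179 kb taken here from mm9, and at which end the annotations differ was not determined. If the difference lay at the lower end, the DNA just below 44.544 Mb, including the raised stretch described further on, would be part of the gene. Exon positions in mm9 were not used here, so no probe was assigned to an exon, an intron or an untranslated region. The promoter is shown because readings next to the upstream end of the gene body were among the highest of the interval. The RefSeq sequence (GRCm38.p6, chr4:44710645-44710944, minus strand) gives 250 bases before the start of transcription in lower case and the first 50 transcribed bases in capitals.
Pax5 promoter: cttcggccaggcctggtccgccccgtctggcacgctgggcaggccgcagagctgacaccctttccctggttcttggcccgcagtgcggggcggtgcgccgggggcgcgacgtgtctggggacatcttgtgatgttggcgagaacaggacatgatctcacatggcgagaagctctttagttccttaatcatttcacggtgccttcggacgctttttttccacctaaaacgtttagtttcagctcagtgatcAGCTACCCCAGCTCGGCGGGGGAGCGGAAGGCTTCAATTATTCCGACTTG
These 300 bases were 59% G or C and held 23 CG dinucleotides, against medians of 52.7% and 7 over all 32851 promoters of the RefSeq table. Where they lie in mm9 was not determined, so no probe was placed on them.

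Values are log2 ratios of tumour over non-leukemic DNA, centred on each array's autosomal median, so that 0 means the same DNA content as the autosomes at large. If every cell were tumour, loss of 1 of 2 copies would give -1 and 1 extra copy would give 0.58. Background-subtracted median Cy5 signals ranged from 199 to 225 on Ikzf1+/- arrays and from 88.4 to 159 on Ikzf1+/+ arrays, with no overlap (two-sided exact permutation p = 0.00794). The Cy3 medians ranged from 146 to 165 on Ikzf1+/- arrays and from 164 to 179 on Ikzf1+/+ arrays. Noise between neighbouring probes had an SD of 0.171 to 0.194 in Ikzf1+/- tumours and 0.184 to 0.222 in Ikzf1+/+ tumours. The 10 arrays lay on 5 slides, and only 1 slide held both genotypes, Ikzf1+/- tumour 1 and Ikzf1+/+ tumour 5.

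The Pax5 gene body stood close to 0 in Ikzf1+/- tumours and slightly above 0 in Ikzf1+/+ tumours. Its mean over 505 probes was 0.0099, 0.045, 0.018, 0.020 and 0.039 in Ikzf1+/- tumours 1 to 5. The same mean was 0.24, 0.13, 0.079, 0.17 and 0.11 in Ikzf1+/+ tumours 1 to 5. Every Ikzf1+/- value lay below every Ikzf1+/+ value, and Ikzf1+/+ tumour 1 stood highest. Group means were 0.027 ± 0.015 in Ikzf1+/- and 0.15 ± 0.062 in Ikzf1+/+ leukemias (SD, n = 5 each), a difference of -0.12. With a two-sided exact permutation test this gave p = 0.00794, the smallest p that 5 against 5 tumours allow, or 0.0106 after Benjamini-Hochberg adjustment over the 4 regional values tested. On the slide with both genotypes the difference was -0.10, from 1 tumour each. Among 2803 windows of 100 kb with at least 20 probes elsewhere on the autosomes, 4.14% also had every Ikzf1+/- tumour below every Ikzf1+/+ tumour, and 5.85% had a difference at least as negative. Among the 215 windows with at least 100 probes, these shares were 8.84% and 1.86%.

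**Figure D1:**
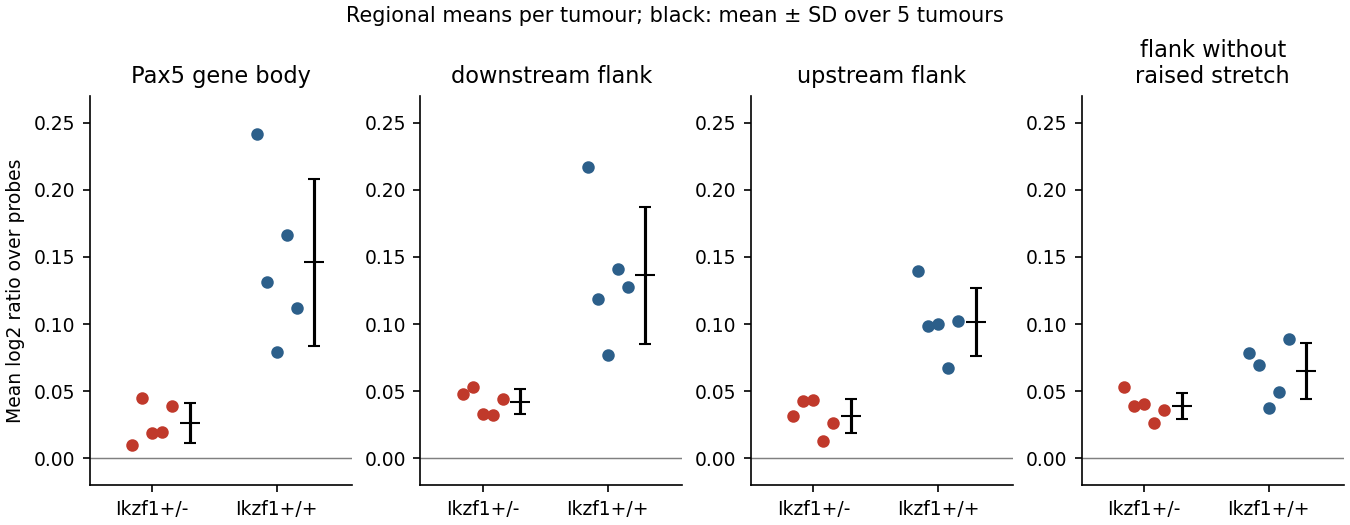
Mean log2 ratio over the probes of each region (vertical axis) in Ikzf1+/- tumours (red, left) and Ikzf1+/+ tumours (blue, right), 1 point per tumour, with the mean and SD over 5 tumours in black. The genotypes do not overlap in the gene body and both flanks, and they overlap in the downstream flank once the raised stretch of 15 probes is left out. The stretch was chosen by gains called in Ikzf1+/+ tumours alone, so this overlap follows in part from the choice.

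The direction of this small regional difference depended on how background was handled. After normexp background correction the gene-body means were 0.18 ± 0.027 in Ikzf1+/- and 0.16 ± 0.062 in Ikzf1+/+ leukemias (SD, n = 5 each), a difference of 0.027 in the opposite direction (exact p = 0.397). Gene-body probes were brighter than autosomal ones, with a mean log2 signal over both channels of 7.82 against 7.37. The part of signal level in the gene-body difference was not tested. After loess normalisation within arrays, the means were 0.023 ± 0.015 in the Ikzf1+/- and 0.13 ± 0.066 in the Ikzf1+/+ group (SD, n = 5 each).

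The lower Ikzf1+/- readings were spread along the whole gene. In bins of 5 kb the Ikzf1+/- mean ranged from -0.040 to 0.072 and the Ikzf1+/+ mean from 0.062 to 0.24 over 35 bins, and the Ikzf1+/- mean was the lower one in all 35. Probe by probe, 414 of 505 gene-body probes (82%) had a lower mean in Ikzf1+/- tumours, against 49.5% of autosomal probes, with a median difference of -0.12 in the gene body and 0.0016 on autosomes. The extent of the raised level, by change points, varied between the Ikzf1+/+ tumours. In Ikzf1+/+ tumours 1 and 4 it matched the gene's bounds closely and ran from 44544428 to 44722992, at 0.24 and 0.17 over 507 probes each. In Ikzf1+/+ tumours 2 and 3 it reached further, to 44741646 at 0.13 and to 44750645 at 0.083. Ikzf1+/+ tumour 5 had a single level of 0.12 from 44493943 to 44751604, covering both flanks. No Ikzf1+/- tumour had a change point inside the gene body at this setting. The nearest one, in Ikzf1+/- tumour 2, lay between 44519603 and 44520261 and began a level of 0.047. After normexp correction, however, all 5 Ikzf1+/- tumours had a raised segment over the gene, at 0.17, 0.20, 0.16, 0.20 and 0.25 in tumours 1 to 5. In Ikzf1+/- tumours 4 and 5 that segment ended inside the gene body, at 44694921 and 44693992, and the next one stood at 0.065 and 0.11. Beyond the interval, 636 probes within 1 Mb on each side averaged between 0.0073 and 0.017 in Ikzf1+/- tumours and between -0.0079 and 0.049 in Ikzf1+/+ tumours.

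**Figure D2:**
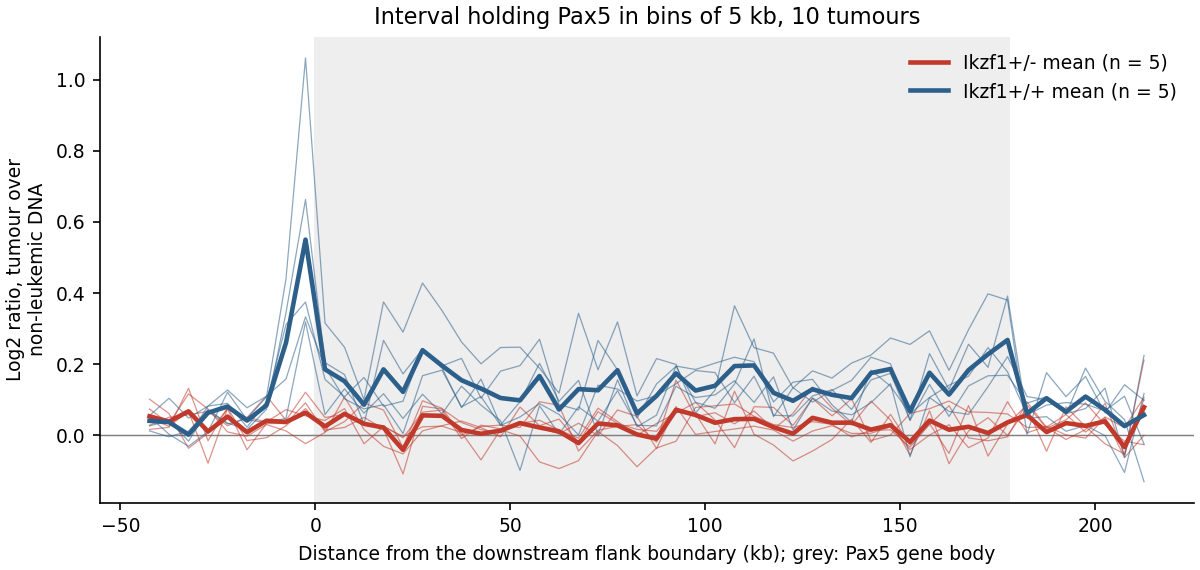
Log2 ratio of tumour over non-leukemic DNA (vertical axis) in bins of 5 kb against the distance in kb from the boundary of the downstream flank (horizontal axis), with thin lines for single tumours and thick lines for the means of 5 Ikzf1+/- (red) and 5 Ikzf1+/+ tumours (blue). The Ikzf1+/+ mean lies above the Ikzf1+/- mean in all 35 gene-body bins and peaks at 0.55 in the last bin below the gene body.

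The downstream flank differed by genotype in much the same way as a whole. Most of the difference lay in a short stretch, which was itself picked by gains called in Ikzf1+/+ tumours. The mean over the flank's 122 probes was 0.048, 0.053, 0.033, 0.032 and 0.044 in Ikzf1+/- tumours 1 to 5. In Ikzf1+/+ tumours 1 to 5 it was 0.22, 0.12, 0.077, 0.14 and 0.13. The genotypes did not overlap, with group means of 0.042 ± 0.0092 in Ikzf1+/- and 0.14 ± 0.051 in Ikzf1+/+ leukemias (SD, n = 5 each) and a difference of -0.094 (exact permutation p = 0.00794, adjusted 0.0106; -0.080 within the shared slide). Such non-overlap was also found in 4.14% of 100 kb windows with at least 20 probes, and in 8.84% with at least 100. Regions of this flank's size were not counted. After normexp correction the flank means were 0.22 ± 0.026 in the Ikzf1+/- and 0.15 ± 0.092 in the Ikzf1+/+ group (SD, n = 5 each). Their difference was 0.074, in the opposite direction (exact permutation p = 0.135). With the median over probes in place of the mean, the difference was -0.042 (exact p = 0.00794). Over the 7 bins of 5 kb below the stretch, the Ikzf1+/- mean ranged from 0.0091 to 0.068 and the Ikzf1+/+ mean from 0.0026 to 0.085, and the Ikzf1+/- mean was lower in 4 of them.

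A gain was called in this flank in 4 of 5 Ikzf1+/+ tumours and in 0 of 5 Ikzf1+/- tumours. A called gain was at least 5 probes with a mean of at least 0.3. Called gains elsewhere on the autosomes were not counted, so this split does not single out Pax5. Over all autosomes, 2.16% of readings of 5 neighbouring probes were at or above 0.3 in Ikzf1+/+ tumours and 0.453% in Ikzf1+/- tumours. The gain ran from 44538376 to 44544223 in Ikzf1+/+ tumours 1 and 4, with means of 1.17 and 0.75 over 18 probes each. In Ikzf1+/+ tumour 2 it ran from 44537617 to 44543217 with a mean of 0.47 over 17 probes. In Ikzf1+/+ tumour 3 it ran from 44537801 to 44544223 with a mean of 0.34 over 19 probes. The ends thus lay within about a kilobase of each other in separate tumours. With the gene's lower bound put at 44.544 Mb, as the rule for the gene gives it, the gains that end at 44544223 reach into its edge.

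The stretch common to these gains, chr4:44538376-44543217, held 15 probes over 4.84 kb. Since gains called in Ikzf1+/+ tumours alone chose it, higher Ikzf1+/+ values are built in, and its values in the genotypes are a description. The mean over its probes was 0.012, 0.16, -0.019, 0.075 and 0.10 in Ikzf1+/- tumours 1 to 5. It was 1.21, 0.47, 0.36, 0.79 and 0.40 in Ikzf1+/+ tumours 1 to 5. On a linear scale this is a ratio of 0.987 to 1.11 in Ikzf1+/- tumours and of 1.28 to 2.31 in Ikzf1+/+ tumours. Ikzf1+/+ tumour 5, without a call, lay between the called Ikzf1+/+ tumours 2 and 3, and it had a called gain over the stretch after normexp correction. All 15 probes were above 0 in Ikzf1+/+ tumours 1, 3 and 4 and 14 in tumours 2 and 5. The genotype difference was -0.58, with group means of 0.065 ± 0.070 in Ikzf1+/- and 0.65 ± 0.36 in Ikzf1+/+ leukemias (SD, n = 5 each). That difference was -0.47 after normexp correction and -0.44 without Ikzf1+/+ tumour 1, the highest. The choice of the stretch bears on these values too, so its direction cannot be weighed against that of the whole flank. With the stretch left out, the remaining 107 flank probes averaged 0.039 ± 0.0096 in Ikzf1+/- and 0.065 ± 0.021 in Ikzf1+/+ leukemias (SD, n = 5 each), and the genotypes overlapped. That overlap too follows in part from how the stretch was chosen.

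**Figure D3:**
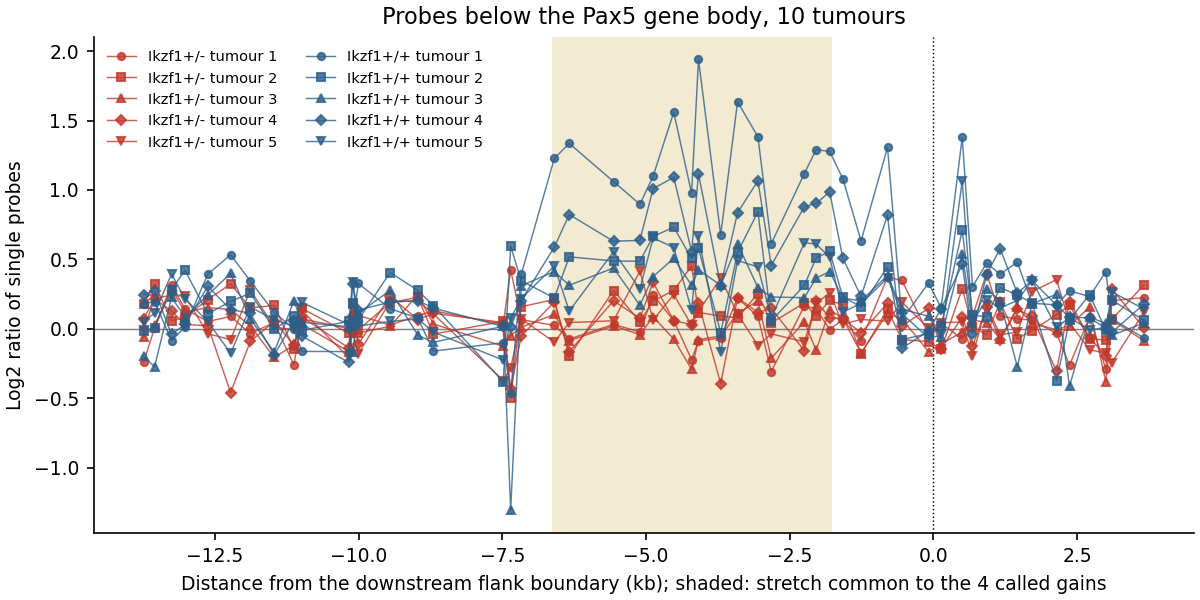
Log2 ratio of single probes (vertical axis) against the distance in kb from the boundary of the downstream flank (horizontal axis, dotted line at the boundary), 1 line per tumour, Ikzf1+/- in red and Ikzf1+/+ in blue, with the stretch common to the 4 called gains shaded. Ikzf1+/+ tumours leave the baseline just below the shaded stretch, with means of 0.36 to 1.21 in it, while Ikzf1+/- means stay between -0.019 and 0.16, and a lone probe inside the gene body is high in Ikzf1+/+ tumours alone.

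In the processed signals, which were already dye-normalised, the excess was in the tumour channel. Set against each array's autosomal median, the Cy5 signal of the stretch was 0.57 ± 0.071 in Ikzf1+/- and 1.13 ± 0.33 in Ikzf1+/+ tumours on the log2 scale (SD, n = 5 each). The Cy3 signal of the same probes, from non-leukemic DNA, was 0.51 ± 0.016 on Ikzf1+/- arrays and 0.50 ± 0.040 on Ikzf1+/+ arrays. In the gene body the Cy5 level was 0.43 ± 0.012 on Ikzf1+/- arrays and 0.54 ± 0.065 on Ikzf1+/+ arrays. The Cy3 level there was 0.41 ± 0.012 on Ikzf1+/- arrays and 0.40 ± 0.016 on Ikzf1+/+ arrays (SD, n = 5 each). In these processed signals the difference between genotypes thus lay in Cy5 for both stretches of DNA, with Cy3 nearly equal. Levels of single channels were not computed after normexp correction, which turned the gene-body difference. The Ikzf1+/+ tumours took the same order in the gene body and in the stretch, from tumour 1, the highest, through 4, 2 and 5 to 3. Their median Cy5 signals over the whole array were 88.4, 107, 93.0, 153 and 159 in that order, lowest in the tumour that was highest at Pax5. What part array signal has in the stretch was not tested.

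**Figure D4:**
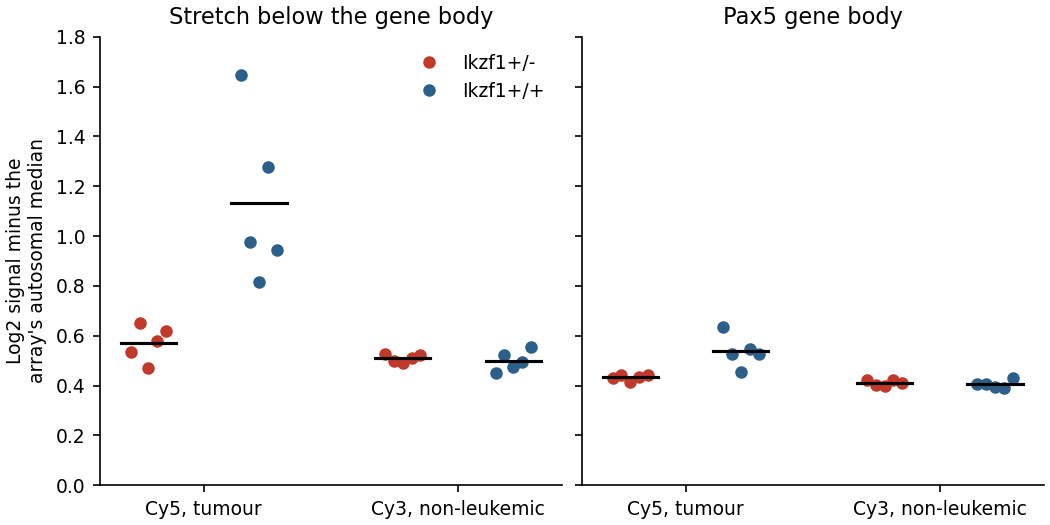
Log2 signal minus the array's autosomal median (vertical axis) in the tumour channel (Cy5) and the non-leukemic channel (Cy3), for the 15 probes of the stretch (left panel) and the 505 gene-body probes (right panel), 1 point per tumour with Ikzf1+/- in red and Ikzf1+/+ in blue, and the group mean as a black bar. The Cy5 means of the stretch are 0.57 in Ikzf1+/- and 1.13 in Ikzf1+/+ tumours, and its Cy3 means are 0.51 on Ikzf1+/- and 0.50 on Ikzf1+/+ arrays.

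The upstream flank, beyond the gene's 5′ end, showed the same order of genotypes at a smaller size. Its mean over 85 probes was 0.032, 0.042, 0.044, 0.013 and 0.027 in Ikzf1+/- tumours 1 to 5. In Ikzf1+/+ tumours 1 to 5 it was 0.14, 0.099, 0.10, 0.067 and 0.10. The genotypes did not overlap, and the group means were 0.031 ± 0.013 in Ikzf1+/- and 0.10 ± 0.026 in Ikzf1+/+ leukemias (SD, n = 5 each), a difference of -0.070 (exact permutation p = 0.00794, adjusted 0.0106; -0.070 within the shared slide). Of the 100 kb windows, 4.14% (at least 20 probes) and 8.84% (at least 100) also had every Ikzf1+/- tumour below every Ikzf1+/+ tumour. Shares over regions of this flank's size were not computed. After normexp correction the flank means were 0.11 ± 0.020 in the Ikzf1+/- and 0.11 ± 0.052 in the Ikzf1+/+ group (SD, n = 5 each). Their difference was -0.0025 (exact permutation p = 0.937). Within this flank, readings were highest right at the gene's upstream bound. Ikzf1+/+ tumour 4 had a called gain of 5 probes there, from 44723266 to 44724578 at 0.78, and Ikzf1+/+ tumour 1 a segment of 3 probes, too short for a call, from 44723266 to 44723635 at 1.04. The highest upstream probe, 44723278 to 44723337, read 0.0010, 0.32, 0.12, -0.042 and 0.47 in Ikzf1+/- tumours 1 to 5. It read 1.42, 0.79, 0.38, 1.27 and 0.35 in Ikzf1+/+ tumours 1 to 5. The genotypes overlapped at this probe, and its difference did not pass the test across autosomal probes (limma adjusted p = 0.275).

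Setting the downstream flank against the gene body within each tumour gave small values. The flank minus the gene body was 0.038, 0.0077, 0.015, 0.012 and 0.0050 in Ikzf1+/- tumours 1 to 5. It was -0.024, -0.013, -0.0022, -0.025 and 0.016 in Ikzf1+/+ tumours 1 to 5. The groups overlapped through Ikzf1+/+ tumour 5, and the means of 0.016 ± 0.013 in Ikzf1+/- and -0.0097 ± 0.017 in Ikzf1+/+ leukemias (SD, n = 5 each) differed by 0.025 (exact permutation p = 0.0476, also 0.0476 adjusted). Leaving out any tumour but Ikzf1+/+ tumour 5 ended this call, with exact p between 0.0635 and 0.0952. With medians over probes the difference was 0.070 (exact p = 0.0159). Normexp correction gave 0.047 (exact permutation p = 0.0317).

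Against non-leukemic DNA, all 10 tumours stood above 0 in all 3 regions. Over the 10 tumours the gene body averaged 0.086 ± 0.076, the downstream flank 0.089 ± 0.061 and the upstream flank 0.066 ± 0.042 (SD, n = 10). Two-sided exact sign permutation gave p = 0.00195 for each, or 0.0026 adjusted over the 4 values tested. The share of other autosomal regions with all 10 tumours above 0 was not computed, so these p-values do not single out Pax5. Mean log2 signal over both channels was 7.82 in the gene body, 7.93 downstream and 7.475 upstream, against 7.37 on autosomes. Cy5 always marked the tumour side, and the part of dye or signal level in these means was not tested. The flank minus the gene body averaged 0.0029 ± 0.020, with 6 of 10 tumours above 0 (exact sign permutation p = 0.643). Within a genotype, 5 tumours cannot give a p below 0.0625, which is what each of the 3 regions reached in both. After normexp correction the means over 10 tumours were 0.17 in the gene body, 0.19 in the downstream flank and 0.11 in the upstream flank, and the upstream mean was 0.042 against a local baseline of 1 Mb on each side. These regional means are far below the 0.58 of an extra copy in all cells.

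Runs of 5 neighbouring probes were tested across the autosomes with limma and Benjamini-Hochberg adjustment, with 141 runs in the interval. In Ikzf1+/+ tumours against non-leukemic DNA, 75 of 141 runs were higher (53.2%, against 4.54% of all 76491 autosomal runs) and 0 were lower (4.6% of all runs). The higher runs were 61 of 100 in the gene body, 7 of 23 in the downstream flank, 5 of 16 in the upstream flank and both runs that cross a boundary. In Ikzf1+/- tumours 0 of 141 runs were higher (0.127% of all runs) and 0 lower (0.201%), both near the share over the autosomes. These counts within a genotype were not repeated after normexp correction, where gene-body means were 0.18 in Ikzf1+/- and 0.16 in Ikzf1+/+ tumours. With all tumours together 39 runs were higher (3.33% of all runs) and 0 lower (4.13%), 30 of the 39 in the gene body. That count was 16 without Ikzf1+/+ tumour 2 (1.51% of all runs higher) and 17 without Ikzf1+/+ tumour 5 (1.22%). It was 102 after normexp correction, where 9.65% of all runs were higher. It was 0 with limma's trended, robust prior, where 0.0392% of all runs were, so that 0 of 141 is near the share over the autosomes.

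Compared directly, few runs passed. With Ikzf1+/- set against Ikzf1+/+, 1 of 141 runs was lower (0.129% of all runs) and 0 were higher (0.0353%). The called run, 44538643 to 44540508 in the downstream stretch, averaged 0.083 ± 0.071 in Ikzf1+/- and 0.68 ± 0.34 in Ikzf1+/+ leukemias (SD, n = 5 each), a difference of -0.60 (limma adjusted p = 0.0489). This call rested on the setting. It was lost without any 1 of the 5 Ikzf1+/- tumours, without Ikzf1+/+ tumour 2, 4 or 5, and with loess or the deposited matrix ratios. Without Ikzf1+/+ tumour 3, 12 runs were called lower, and the share over all runs also rose, to 0.367%. In 25 of 141 runs every Ikzf1+/- tumour lay below every Ikzf1+/+ tumour (17.7%, against 1.47% of all runs), 19 of them in the gene body.

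Of the 712 single probes, 2 were lower in Ikzf1+/- tumours (0.0706% of autosomal probes) and 0 higher (0.0178%), both of them in the gene body. The probe at 44631085 to 44631144 read -0.51, 0.0071, -0.11, -0.58 and -0.17 in Ikzf1+/- tumours 1 to 5. It read 1.56, 0.75, 0.11, 1.61 and 0.89 in Ikzf1+/+ tumours 1 to 5. The difference was -1.26 (limma adjusted p = 0.0338), and the groups did not overlap. The probe at 44692410 to 44692454 read 0.013, 0.26, -0.17, 0.060 and 0.049 in Ikzf1+/- tumours 1 to 5. It read 1.06, 0.65, 0.46, 1.19 and 0.66 in Ikzf1+/+ tumours 1 to 5, a difference of -0.76 (limma adjusted p = 0.0327). Both calls were lost without any 1 Ikzf1+/- tumour and without Ikzf1+/+ tumour 1. Without Ikzf1+/+ tumour 4, 1 probe was called lower (0.0418% of autosomal probes), and without tumour 5, 3 were (0.0693%). Without Ikzf1+/+ tumour 3, 10 were called lower (0.155%).

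Both belonged to a set of isolated high probes inside the gene. At a mean of 0.5 or more, a level chosen after the values were seen, 9 of 505 gene-body probes stood out in Ikzf1+/+ tumours (1.78%, against 0.297% of autosomal probes) and 0 in Ikzf1+/- tumours (0.147% of autosomal probes). In the downstream flank 12 of 122 probes reached it (9.84%) and in the upstream flank 2 of 85, again in Ikzf1+/+ tumours alone. The 9 gene-body probes started at 44545478, 44563576, 44631085, 44658429, 44692410, 44704821, 44710465, 44716843 and 44718832, so they were scattered along the gene. These 9 were picked by their Ikzf1+/+ mean, so a gap between genotypes, and lower readings beside them, follow in part from the choice. Their values are a description. The means of these probes ranged from -0.27 to 0.16 in Ikzf1+/- tumours and from 0.51 to 1.15 in Ikzf1+/+ tumours. The probes on either side of each averaged -0.22 to 0.089 in Ikzf1+/- and -0.13 to 0.21 in Ikzf1+/+ tumours, so the high readings did not extend to their neighbours. The highest gene-body probe, 44704821 to 44704865, read 0.098, 0.11, 0.14, 0.038 and 0.052 in Ikzf1+/- tumours 1 to 5. It read 1.79, 1.00, 0.42, 1.89 and 0.65 in Ikzf1+/+ tumours 1 to 5 (limma adjusted p = 0.0855).

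The other probes named for their level over all 10 tumours were less regular. The highest downstream probe, 44540458 to 44540508, lay in the raised stretch at 0.11 ± 0.15 in Ikzf1+/- and 0.89 ± 0.43 in Ikzf1+/+ leukemias (SD, n = 5 each; limma adjusted p = 0.088). The lowest gene-body probe, 44663740 to 44663799, averaged -0.32 ± 0.33 in Ikzf1+/- and -0.18 ± 0.56 in Ikzf1+/+ leukemias (SD, n = 5 each). The lowest downstream probe, 44537617 to 44537676, just below the raised stretch, averaged -0.17 ± 0.37 in the Ikzf1+/- and -0.22 ± 0.72 in the Ikzf1+/+ group (SD, n = 5 each), with readings from -1.31 to 0.59 in Ikzf1+/+ tumours. The lowest upstream probe, 44745337 to 44745381, averaged -0.077 ± 0.14 in the Ikzf1+/- and -0.26 ± 0.076 in the Ikzf1+/+ group (SD, n = 5 each). None of these 3 lowest probes passed the genotype test (limma adjusted p of 0.892, 0.975 and 0.627).

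No loss of Pax5 was called in any of the 10 tumours, and no gain was called in the gene body as taken here, from 44.545 Mb up. With the lower bound at 44.544 Mb, the called gains of Ikzf1+/+ tumours 1, 3 and 4 reach into it, to 44544223. Whether the raised stretch belongs to the gene in the longer GRCm38 annotation was not determined. Read in sliding windows of 20 probes, the lowest gene-body mean was between -0.12 and -0.048 in Ikzf1+/- tumours and between -0.078 and 0.057 in Ikzf1+/+ tumours. The highest such mean was between 0.097 and 0.14 in Ikzf1+/- tumours and between 0.19 and 0.45 in Ikzf1+/+ tumours. Of 705 readings of the interval's runs of 5 probes in each genotype, 0 were at or below -0.3 in Ikzf1+/- (0.246% of autosomal readings) and 0 in Ikzf1+/+ tumours (1.13%). At or above 0.3 were 0 in Ikzf1+/- (0.453%) and 69 in Ikzf1+/+ tumours (9.79%, against 2.16%). A single gene-body probe in 1 tumour, Ikzf1+/+ tumour 5, read below -1, at -1.56. With calls at 0.2 in place of 0.3, 1 tumour had a gain over the gene body, and with calls at 0.5, 2 tumours kept a gain in the downstream flank.

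Other places on the autosomes had values that correlated with those of Pax5 over the tumours. Over the 10 tumours, the 5 windows of 100 kb most like the gene body among 2803 had Pearson correlations of 0.971 to 0.983 with it. The most similar window, at 180200001 to 180300000 on chromosome 1, averaged -0.019 ± 0.028 in Ikzf1+/- and 0.26 ± 0.13 in Ikzf1+/+ leukemias (SD, n = 5 each). The other 4 started at 125400001 on chromosome 8, 125300001 on chromosome 7, 11100001 on chromosome 16 and 9600001 on chromosome 3. For the downstream flank, the 5 runs of 5 probes most like it among 76350 had correlations of 0.987 to 0.992. These started at 96374978 on chromosome 9, at 21807723 and 23713665 on chromosome 13, at 16863235 on chromosome 16 and at 136878135 on chromosome 6, with Ikzf1+/- means of -0.11 to 0.084 and Ikzf1+/+ means of 0.38 to 1.41. All points in these correlations share the arrays, and so their signal levels. Correlations between tumours, probe by probe within the gene, were low to moderate. Noise between neighbouring probes had an SD of 0.171 to 0.222, and its part in these correlations was not tested. Over the 505 gene-body probes, pairs of Ikzf1+/- tumours correlated at 0.0724 to 0.275, pairs of Ikzf1+/+ tumours at 0.15 to 0.46 and pairs across genotypes at -0.0879 to 0.33.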

How the data were processed

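Genomic DNA of 10 tumours was hybridised on 2-colour arrays. Per the labels, Cy5 was leukemic and Cy3 non-leukemic DNA, with 1.5 µg labelled with a ULS kit after phenol-chloroform extraction. The deposited scanner files give Cy5 and Cy3 intensity per spot as processed signal, background-subtracted and dye-normalised by a protocol whose name states lowess (CGH_105_Jan09_Lowess), in Feature Extraction 10.7.3.1 with build mm9, per the file headers; the submitters' processing notes name version 10.5.1.1. The deposited series matrix holds log2 ratios, which matched the scanner's own with a slope of 1 and were not centred; that scanner column, deposited as a log10 ratio of Cy5 over Cy3, served for this check alone.

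Log2 of Cy5 over Cy3 was computed, flagged spots were left out, spots of 1 probe were averaged and arrays were centred on the autosomal median. Segments came from penalised change points (PELT, at least 3 probes, a penalty of 2 noise variances times the log of how many probes there were, and outlying probes pulled in to 4 noise SDs from a median of 11 neighbours). Regions were compared with exact permutation tests (scipy 1.17.1; 252 splits of 5 against 5, or 1024 sign patterns), and runs of 5 probes and single probes with limma 3.58.1 under R 4.3.3 at an adjusted p of 0.05 over all autosomes. The scripts were tested on simulated data. The number of arrays limits the precision.

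Named items were Pax5, probes and runs past the threshold, the highest and lowest probe of each region by mean over 10 tumours, and the 5 windows or runs most like it. The gene, its bounds and these choices were made with earlier results of these data known. The scanner files used here carry no gene names, so exons and a planned list of B-lineage genes were not analysed here. Alternatives were normexp (offset 50, on median signals), loess, the matrix ratios, medians, bright probes, flagged spots kept, other centring, other bounds, slide and replicate blocks, other call thresholds and each tumour left out.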

Additional observations from a re-analysis of the deposited data

Results flagged for a closer look

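The level of tumour over non-leukemic DNA differed between the genotypes in each tested region. The Ikzf1+/- mean minus the Ikzf1+/+ mean was -0.12 in the Pax5 gene body, -0.094 in the downstream flank and -0.070 in the upstream flank (exact permutation p = 0.00794 each), and 0.025 for the downstream flank minus the gene body (p = 0.0476). The first 2 of these turned positive after normexp background correction, while the Cy5 signal of the arrays also differed between the genotypes; its part was not tested.

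For the downstream flank minus the gene body, Ikzf1+/- tumour 1 stood apart from the other 4 Ikzf1+/- tumours at 0.038, with a gap of 0.71 of the group's range. Among 12 groups of 5 tumours examined for such gaps this was the only one, and about 1 in 20 groups would show one by chance.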

How the results depend on the processing

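The genotype differences of the gene body and both flanks kept their direction and call with loess, the matrix ratios, medians over probes, bright probes, flagged spots kept, both other centrings and other gene bounds, although medians over probes moved the downstream flank to -0.042 and the flank minus the gene body to 0.070. After normexp they were 0.027, 0.074 and -0.0025 (gene body, downstream, upstream), none called. Leaving out 1 tumour gave -0.14 to -0.096, -0.11 to -0.074 and -0.079 to -0.061, all called; for the flank minus the gene body it gave 0.020 to 0.032. Against non-leukemic DNA it gave 0.069 to 0.095, 0.075 to 0.096, 0.058 to 0.072 and, for flank minus gene body, -0.00098 to 0.0061, which was -0.016 with medians over probes; no other alternative turned a value, but normexp raised the 3 regional means to 0.17, 0.19 and 0.11. Replicate numbers did not pair the tumours (same-number correlations of deviations from -0.013 to 0.12, 2 of 5 tumours most like their own number). With the replicate block the values stayed at -0.12, -0.094, -0.070 and 0.025, with p of 0.0625 for the first 3, the smallest 5 pairs allow, and 0.125. For runs called between genotypes (1 in the main setting), normexp gave 7, of which 2 of 141 higher in Ikzf1+/- (2.05% of all runs) and 5 lower (0.382%). Bright probes gave 4 (0.165% of all runs lower) and slide as a random block 3 (0.205%). Loess (0.11%), the matrix (0.127%), a trended robust prior (0.00784%) and slide as a fixed block gave 0, the last calling 0 of all 76491 runs. Leaving out 1 tumour gave 0 to 12, where 0.00784% to 0.367% of all runs were lower. For single probes (2), normexp gave 8, 4 higher (0.432% of all probes) and 4 lower (0.101%). Bright probes gave 7 (0.128% lower), slide as a random block 6 (0.111%), the robust prior 0 (0.0152%) and slide as a fixed block 0 (0.00366%). Leaving out 1 tumour gave 0 to 10, where 0.0188% to 0.155% of all probes were lower. For runs against non-leukemic DNA (39), normexp gave 102 (9.65% of all runs higher) and the robust prior 0 (0.0392%). Leaving out 1 tumour gave 16 to 39, where 1.22% to 3.54% of all runs were higher. Calls at 0.2 gave 1 tumour with a gain over the gene body, and calls at 0.5 gave 2 with a gain in the downstream flank. The cause of these changes was not tested. Settings for the raised stretch were chosen after seeing the data and gave -0.62 to -0.47, or -0.65 to -0.44 without 1 tumour. The alternatives for the B-lineage gene list were not run.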
